A study of Mus with 438 samples.

Results

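Splicing factor and RNA-binding genes were taken as every gene of the expression table whose symbol begins with Srsf, Prpf or Rbm and a digit, with Hnrnp, with Sf3a or Sf3b, or with Snrp. The rule found 95 of the 10390 genes. They were 11 SR protein genes (Srsf), 20 hnRNP genes (Hnrnp), 9 genes for subunits of SF3A and SF3B, 12 genes for polypeptides of the small nuclear ribonucleoproteins (Snrp), 13 pre-mRNA processing factor genes (Prpf) and 30 genes named for an RNA-binding motif (Rbm). Single photoreceptors of C57BL/6 mice had been picked by their fluorescence and sequenced one by one, to ask how a thyroid hormone receptor, the product of Thrb, shapes cone diversity. The 2 month cells were knockout cones (Trb2Cre-KO:Ai6) from the superior zone of the retina (50 cells) and the inferior zone (48 cells), and rods (tgNrl:gfp, 29 cells) with no zone given. The controls were cones of Trb2Cre-het:Ai6 mice from both zones, collected on postnatal day 2 (P2, with 26 cells from the superior and 30 from the inferior zone), day 8 (P8, 24 from each zone), day 21 (P21, 24 from each zone), day 60 (P60, 26 from the superior and 21 from the inferior zone) and at 2 months (53 from the superior and 50 from the inferior zone), so every control carried the driver as a heterozygote. The labels name no animal and no collection date. Cells of 1 age and genotype are called a collection here, so the knockout cones, the rods and each age of controls are 1 collection each. Each group of cells was 1 value, the mean over its cells in CPM (reads of a gene scaled to 1 common total per cell). Region lists came from embryonic retina at E18 (ThrbHAB:BirA, with BirA controls) and from purified P30 cones (Trb2Cre-KO:Sun1-gfp and Trb2Cre-het:Sun1-gfp).

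Most genes are transcribed with introns, which the spliceosome removes. The small nuclear ribonucleoproteins recognise the splice sites, SF3A and SF3B belong to the U2 particle that binds at the branch point, and several Prpf proteins belong to the U4/U6.U5 tri-particle that completes the machine. SR proteins usually promote and hnRNP proteins often repress the use of nearby exons, and many Rbm proteins act as regulators, coupling splicing to RNA stability or translation. Photoreceptors are sensitive to this machinery: dominant mutations of PRPF3, PRPF4, PRPF6, PRPF8 and PRPF31 cause retinitis pigmentosa in humans.

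The defining genes followed the labels. Thrb averaged 43.2 and 33.9 CPM in knockout cones of the superior and inferior zones, against 213 and 169.7 CPM in 2 month control cones. The table gives Thrb as 1 gene, so its isoforms could not be told apart. Opn1mw, the M opsin gene that depends on this receptor, averaged 6.63 and 1.47 CPM in knockout cones, against 9599 and 3414 CPM in the controls. The 10 cone markers summed to 88.3 CPM in rods, against 8541 to 103406 CPM in the 12 groups of cones, and the 8 measured rod markers summed to 129222 CPM in rods, against 533 to 20522 CPM in cones. Glial markers were present in all groups: 7 measured Müller glia markers summed to 2889 CPM in rods, with none at 0, and to 376 to 1280 CPM in cones. A cell held 897893 to 32636810 reads, with group medians of 1744579 to 3252559 reads at P2 to P60 and 10923043 to 18313296 reads in the 2 month groups. P60 superior libraries 3 and 14 had nearly the same profile (correlation of log values 0.996, against at most 0.467 elsewhere) and were counted as 1 cell, which left 429 cells.

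In CPM, though not with TMM factors (below), cones at P2 devoted more of their reads to splicing genes than any other group. The 95 genes together took 17601 and 17685 CPM in superior and inferior cones at P2, 13383 and 11778 by P8, 11357 and 10138 by P21, 11887 and 10660 by P60 and 14288 and 13073 by 2 months. Knockout cones were at 12865 and 12056 CPM and rods at 11813 CPM. SR protein genes summed to 3507 and 3795 CPM at P2, and to 1686 to 2572 CPM in the 8 older control groups. The hnRNP genes were at 7657 and 7699.7 CPM at P2 and at 3807 to 5944 CPM in the older groups. The scale matters here. CPM divides by all reads of a cell, whereas TMM factors (edgeR) centre the groups on the bulk of genes. With TMM factors, the 95 genes summed to 13904 and 13942 CPM at P2, 10639 to 11910 CPM in the P8, P21 and P60 groups, and 14739 and 14661 CPM at 2 months, so that P2 was no longer the highest in sum. The SR protein and hnRNP genes alone still had their highest control sums at P2 on that scale, at 2771 and 2991 CPM and at 6049 and 6070 CPM. Rods, lower than 2 month control cones in CPM, were higher after TMM scaling, at 18994 CPM.

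**Figure D1:**
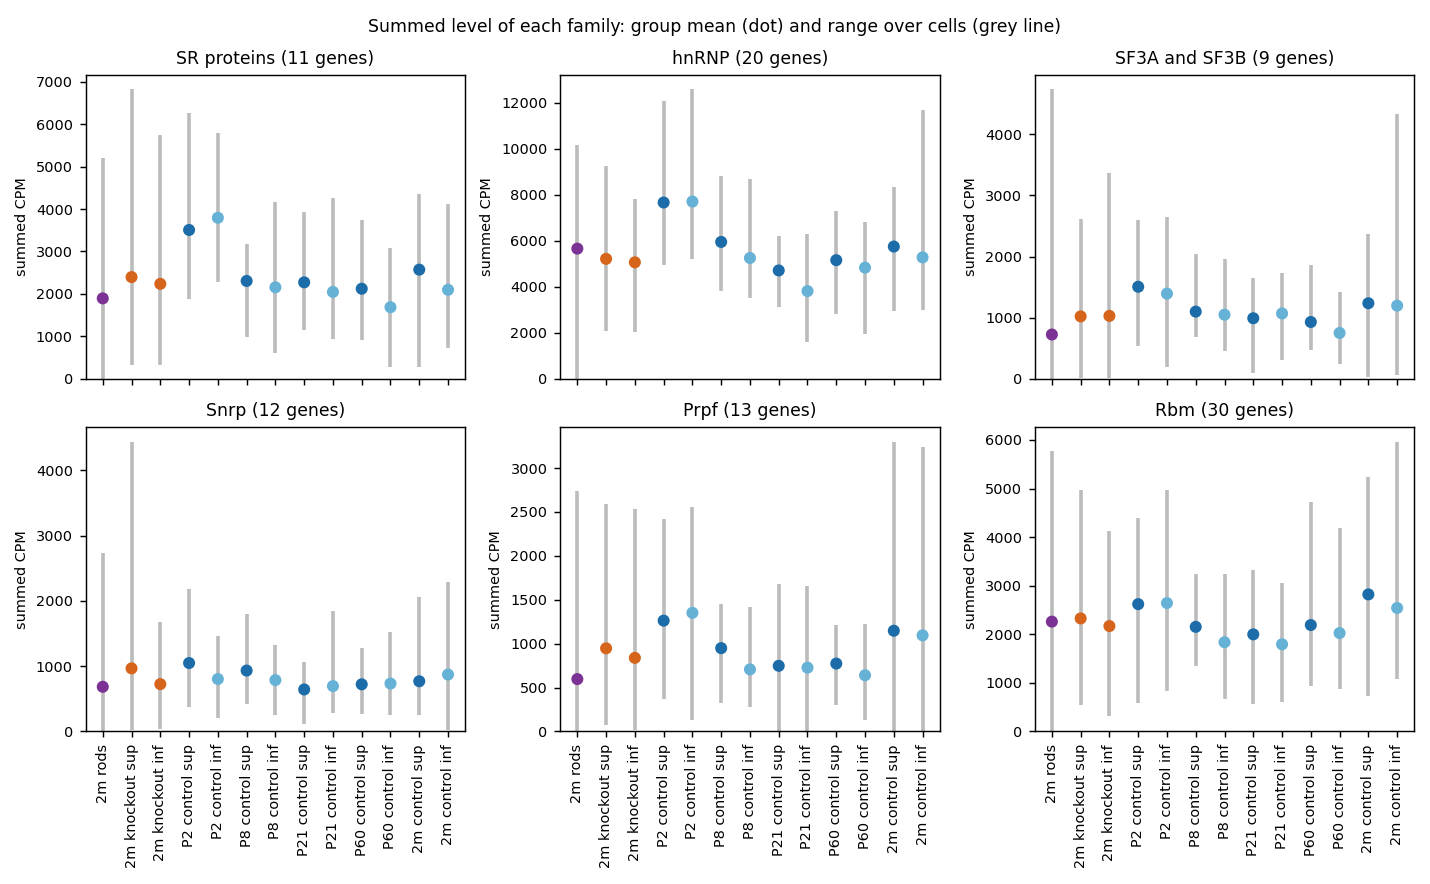
Summed level of each of 6 gene families, in CPM, in rods, knockout cones and control cones of each collection. Dots are group means and grey lines run from the lowest to the highest cell; the SR protein and hnRNP panels have both P2 dots, at 3507 and 3795 CPM and at 7657 and 7699.7 CPM, above every other dot.

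Single libraries held reads for part of the splicing genes, and the number moved with depth. To compare cells of unequal depth, each was thinned to 800000 reads, which no cell fell short of. The median rod then had at least 1 read for 28 of the 95 genes (17 to 39 over cells), which is 29.5% of them. The median knockout cone had 47.5 genes in either zone. Control cones had 67 and 66.5 genes at P2, 60.5 and 60.5 at P8, 50 and 44.5 at P21, 53 and 53 at P60, and 60 (28 to 76) and 51 (22 to 68) at 2 months. Rods were lowest and P2 cones highest for all genes of the table as well: a median rod showed 15.9%, knockout cones 29.9% and 30.5%, P2 cones 42.4% and 43.8%, and 2 month control cones 39.1% and 34.5%. Without thinning, a median rod had 54 of the 95 genes, knockout cones had 67.5 and 68, and 2 month control cones had 77 and 72.5.

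**Figure D2:**
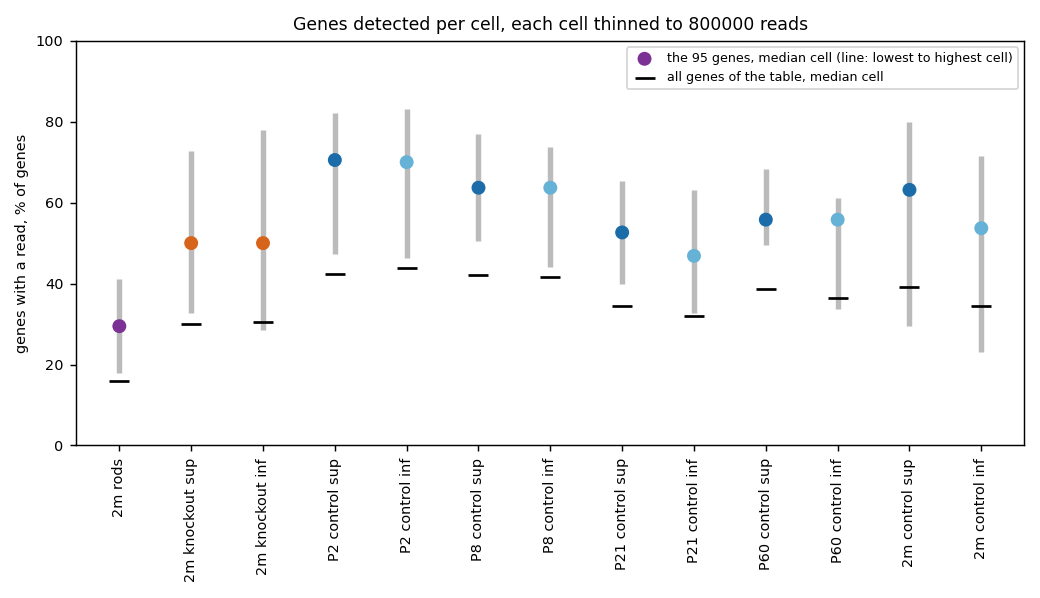
Share of the 95 splicing genes with at least 1 read in a cell thinned to 800000 reads, in percent, for each group. Dots are the median cell, grey lines the range over cells and black bars the median share over all genes of the table; rods are lowest on both measures, at 29.5% and 15.9%.

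The first comparison asked which splicing genes differed between mature cones (P21, P60 and 2 months) and early postnatal cones (P2 and P8). Each collection was 1 value per gene, the mean of both zones on the log2(mean CPM + 1) scale, and 94 of the 95 genes, all but Snrpg, had the mean of 5 CPM needed to be tested. With limma and Benjamini-Hochberg adjustment over all 10136 genes tested, 0 splicing genes were higher in mature cones (0.0987% of all genes) and 0 were lower (0.0888% of all genes). At an unadjusted p under 0.05, limma gave 3 higher genes (3.19%, against 4.43% of all genes) and 9 lower genes (9.57%, against 10.1%). On recovered reads, edgeR called 0 splicing genes (0.0296% of all genes) and DESeq2 called 2, Hnrnph3 and Srsf2 (2.13%, against 3.42% of all genes). At an unadjusted p under 0.05, edgeR had 6 (6.38%, against 9.16%) and DESeq2 10 (10.6%, against 13.1%). With log values averaged over cells, limma called 2 (2.13%, against 3.95%), with a slope over the rank of age 2 (2.13%, against 2.11%), and without P8 1 (1.06%, against 2.18%), shares near or below those of all genes. The difference was negative for 71 of the 94 genes (75.5%, against 66.8% of all genes), and for 18 of the 20 hnRNP genes. The median difference was −0.31 for splicing genes and −0.33 for all genes, and with TMM factors −0.03 and −0.05. A set of 5 genes (5.32%, against 8.86%) had every mature collection above both early ones, and 24 genes (25.5%, against 25.2%) had every mature collection below them. Depth, collection and age cannot be told apart in this design. The test had 5 values per gene, and ages within a side differ, P2 from P8 among them, which adds to its residual. That 0 genes passed therefore does not show that levels stayed the same.

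The lowest adjusted p-values among the splicing genes belonged to Srsf2, Hnrnpd and Srsf6, none of which passed the test. Srsf2 (chr11:116849897-116853675, GRCm38), an SR protein that selects exons and acts in transcription elongation, averaged 609 and 521 CPM in superior and inferior cones at P2, 266 and 296 by P8, 193 and 165 by P21, 99.3 and 173 by P60, and 164 and 123 by 2 months. Each early group was above each mature group. Its difference was −1.41 ± 0.38 (SE, 5 collections; limma, adjusted p = 0.164). The lowest, median and highest superior cones had 0, 2.88 and 436 CPM of Srsf2 at P60, against 0.984, 632 and 1462 CPM at P2. The interval of Srsf2 overlaps Mfsd11 in the annotation, and the kit does not mark strand, so reads of the shared part could belong to either gene.

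Srsf6 (chr2:162931508-162937121), an SR protein, averaged 256 and 337 CPM at P2, 164 and 182 by P8, 80.4 and 145 by P21, 89.2 and 30.1 by P60, and 107 and 70.8 by 2 months. Its difference was −1.50 ± 0.42 (SE; limma, adjusted p = 0.170). Early and mature groups did not overlap. Members of this comparison were named partly for such separation of collections, which 25.2% of all genes had in this direction. It was over 1 CPM in 9 of 26 superior and 6 of 21 inferior cones at P60, against 20 of 26 and 24 of 30 cones at P2. Hnrnpd (chr5:99955935-99979130), also called AUF1 and known for binding AU-rich elements that set mRNA stability, averaged 365 and 368 CPM at P2, 243 and 296 by P8, 172 and 128 by P21, 188 and 120.4 by P60, and 121 and 87.9 by 2 months. Its difference was −1.24 ± 0.34 (SE; limma, adjusted p = 0.170), again without overlap between early and mature groups.

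Hnrnph3 (chr10:63014664-63023980), an hnRNP of the family that binds G-rich runs, had the opposite course. It averaged 92.0 and 124 CPM at P2, 85.7 and 77.1 by P8, 161 and 167 by P21, 214 and 253 by P60, and 224 and 168 by 2 months. All 6 mature groups were above all 4 early groups, and the difference was 1.05 ± 0.34 (SE; limma, adjusted p = 0.225). Separation of collections was again part of the naming, and 8.86% of all genes had it in this direction. Superior knockout cones (239 CPM) and rods (205 CPM) were also in the mature range of Hnrnph3, and inferior knockout cones (293 CPM) were above it. Its annotated interval overlaps Rufy2.

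Among the other members chosen by the size of their difference, those lower in mature cones were Hnrnpa0 (−1.79 ± 0.88), Rbm15b (−1.60 ± 0.58), Rbm22 (−1.39 ± 0.59), Prpf6 (−1.24 ± 0.52) and Sf3a2 (−1.09 ± 0.63), each with its SE. Rbm22 belongs to the core of the active spliceosome, and Sf3a2 is a subunit of SF3A. Those higher were Rbm48 (1.59 ± 0.62), Rbm3 (1.52 ± 0.62), Rbm41 (0.88 ± 0.48) and Rbm7 (0.66 ± 0.33). Rbm7 is a part of the nuclear exosome targeting complex, and Rbm48 and Rbm41 act in splicing of the rare U12 introns. None of these passed the adjusted threshold with limma, and the size of several moved with 1 collection. Leaving out P2 left 0.69 for Rbm48, 0.39 for Rbm7 and −0.68 for Sf3a2, and −0.91 for Srsf2 above. Rbm48 was at 2.49 without P8. Rbm3 was at 0.88 without the 2 month controls, and Prpf6 at −0.82 without P21. Rbm15b overlaps Vprbp in the annotation. Rbm48 averaged 35.6 to 96.9 CPM in the mature groups, against 29.3 to 32.5 CPM at P8 and 25.7 and 2.15 CPM in superior and inferior cones at P2, so the inferior group at P2 stood apart.

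**Figure D3:**
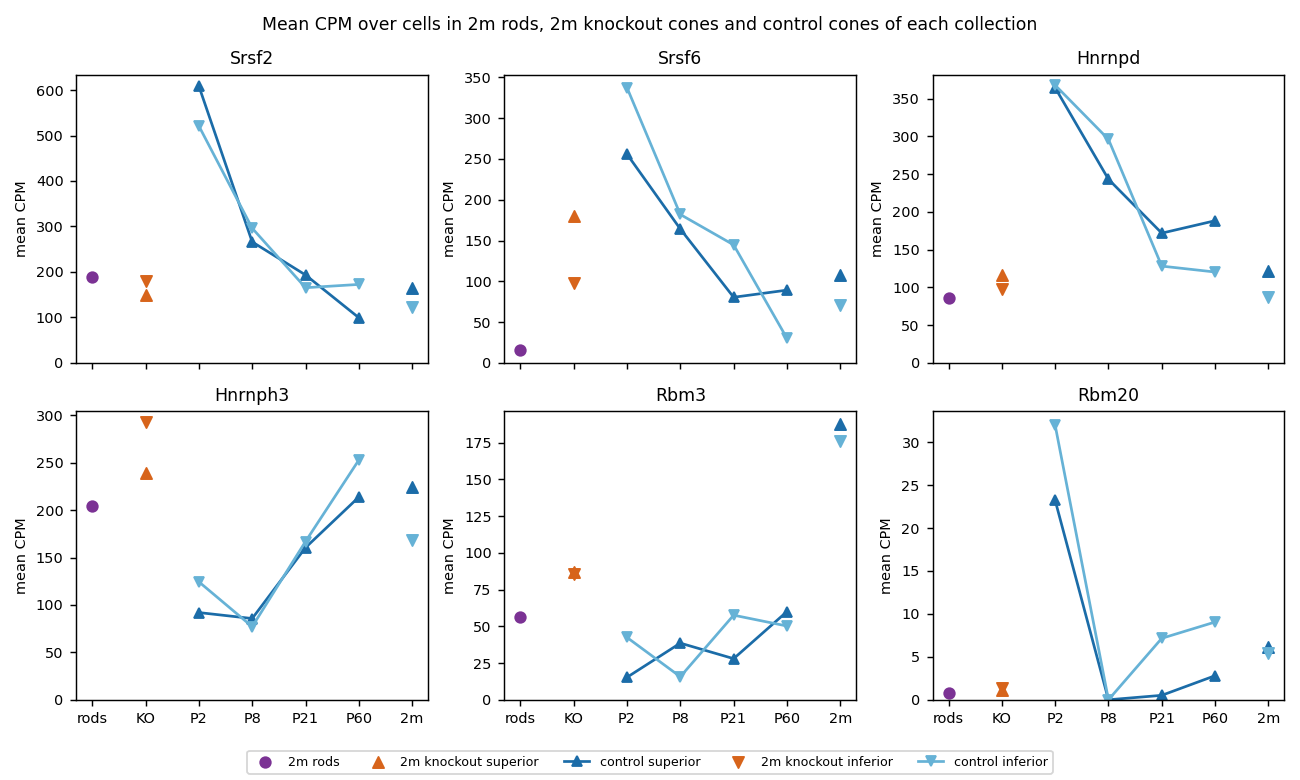
Mean CPM of Srsf2, Srsf6, Hnrnpd, Hnrnph3, Rbm3 and Rbm20 in rods, knockout cones and control cones of each collection; triangles pointing up are superior and down inferior, and lines join the control ages P2 to P60. Srsf2, Srsf6 and Hnrnpd are highest at P2, Rbm3 is highest in the 2 month controls at 188 and 176 CPM, and Rbm20 is at 0 in both P8 groups.

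P2 stood out among the collections by a simple count. Both P2 zones were above the 8 other control groups for 23 of the 94 genes (24.5%, against 14.9% of all genes) and below them for 1 gene (1.06%, against 6.23%). With TMM factors the count at the top was 14 genes (14.9%, against 8.56%). The list held 5 of 11 SR protein genes (Srsf1, Srsf2, Srsf6, Srsf7 and Srsf9), 5 of 20 hnRNP genes (Hnrnpk, Hnrnpu, Hnrnpab, Hnrnpdl and Hnrnpd), 3 of 9 SF3 genes (Sf3b1, Sf3a1 and Sf3a2), 2 of 11 Snrp genes, 2 of 13 Prpf genes and 6 of 30 Rbm genes. Hnrnpu, a scaffold protein of the nucleus that binds chromatin and RNA, averaged 956 and 956 CPM at P2, against 322 to 629.8 CPM in the other control groups. Hnrnpab averaged 626 and 497 CPM at P2, against 195 to 308 CPM. Sf3a1, the U2 subunit that also contacts U1, averaged 184 and 160.1 CPM at P2, against 28.8 to 99.9 CPM. Hnrnpu, Hnrnpab and Sf3a1 kept this place with TMM factors, whereas Srsf1, Srsf7, Hnrnpk, Sf3b1 and Snrpb did not. P2 cones also differed in their markers: the cone markers summed to 8541 and 9695 CPM there, against 22442 to 103406 CPM later, and the 2 measured bipolar markers to 460.1 and 599.6 CPM, against 32.3 to 265 CPM in later controls. Their part in these counts was not tested.

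Rbm20, a regulator of titin splicing known from the heart, had its highest means at P2. It averaged 23.2 and 32 CPM at P2, but was over 1 CPM in only 5 of 26 and 4 of 30 cells, the highest at 248 and 393 CPM. At P8 it had no read in any of 24 superior and 24 inferior cones. It averaged 0.517 and 7.16 by P21, 2.80 and 9.05 by P60 and 6.18 and 5.48 by 2 months, against which knockout cones were at 1.11 and 1.33 CPM and rods at 0.787 CPM. A few cells set each of these means.

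Splicing genes moved most at the first and the last of the 4 steps between neighbouring collections. P8 minus P2 had a median of −0.49, with 75 of 94 genes lower (79.8%), against −0.19 and 58.4% for all genes. With TMM factors the medians were −0.31 and −0.01, and 68 genes were lower (72.3%, against 50.6%). Lower at P8 were 10 of 11 SR protein genes, 18 of 20 hnRNP genes and 12 of 13 Prpf genes. P21 minus P8 had a median of −0.24, against −0.21 for all genes, and 63 genes were lower (67%, against 59.9%). Among them were 11 of the 11 Snrp genes tested, with a median of −0.87. Snrpd1, a core Sm protein, averaged 24.4 and 20.1 CPM at P21, against 49 and 34.8 CPM at P8. Snrpd2, another Sm protein, averaged 8.02 and 7.68 CPM at P21, against 22.9 and 24.6 CPM at P8. P60 minus P21 had a median of 0.12, against 0.03, and 2 months minus P60 one of 0.35, against −0.06. With TMM factors the last step was the largest of the 4 in median, at 0.45 for splicing genes and 0.03 for all genes. Both zones of P21 were below the other control groups for 12 genes (12.8%, against 4.98%), among them Hnrnpm, Hnrnpa1, Rbm39 and Prpf4. P21 cells were also the shallowest, with median depths of 1744579 and 1835259 reads, whose part was not tested. P8 held both zones above the others for 1 gene (1.06%, against 4.11%) and below them for 4 (4.26%, against 1.55%), and P60 for 0 (2.27% of all genes) and 5 (5.32%, against 3.07%).

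The 2 month and P60 controls share a genotype and nearly an age, but were separate collections, and splicing genes differed between them. P60 over 2 month controls had a median log2 ratio of −0.35 over the 79 splicing genes with enough reads, against 0.11 for all genes, and 2 months minus P60 gave 28 of 94 genes lower (29.8%, against 52.7%). Both 2 month zones were above the 8 other control groups for 11 genes (11.7%, against 5.57%), among them Hnrnpc, Rbm39, Rbm25 and Hnrnpa1, and below them for 6 (6.38%, against 7.48%), among them Srsf1, Hnrnpl and Hnrnpf. A size rule was applied here and below: a ratio of at least 2-fold in both zones in 1 direction and, in the higher of the groups, a mean of 10 CPM or more with 25% or more of the cells over 1 CPM. By it 1 gene was higher at P60 (1.27%, against 5% of all genes) and 7 were lower (8.86%, against 5.06%). The 7 were Hnrnpa1, Prpf4b, Prpf8, Rbm3, Sf3b4, Snrpc and Snrpe. Hnrnpa1, a repressor of exon use, averaged 89.6 and 67.3 CPM at P60, against 186 and 186 CPM at 2 months. Sf3b4, an SF3B subunit, averaged 30.7 and 27.9 CPM at P60, against 98.4 and 113 CPM at 2 months. The gene higher at P60 was Hnrnpl, and it did not pass without the highest cell of each group. Median depth was 1942880 and 2219176 reads at P60, against 12568958 and 13578809 reads at 2 months, and depth, collection and age cannot be told apart.

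The next comparison asked whether splicing genes follow the position of a cone, superior over inferior, in the 5 control collections. With limma and a block for collection, 0 of 94 splicing genes passed in either direction, nor did any of the 10136 genes (0% higher and 0% lower) in that fit. At an unadjusted p under 0.05, 2 genes were higher in superior cones (2.13%, against 4.88% of all genes) and 0 were lower (2.12% of all genes). On recovered reads edgeR called 0 splicing genes (0% of all genes), with 0 at that unadjusted p (4.11% of all genes). DESeq2 called 0 as well, though 237 of all genes passed there (2.34%), and had 7 splicing genes at that unadjusted p (7.45%, against 12.8%). Averaged log values called 0 (0.158% of all genes), and the fit without the block 0 (0.0197%). The 2 genes were Prpf31, at a difference of 0.82 ± 0.29 (SE; limma, adjusted p = 0.702), and Hnrnpa3, at 0.79 ± 0.31 (SE; limma, adjusted p = 0.702). Prpf31, which joins the U4/U6 and U5 particles, averaged 105 and 79.6 CPM in superior and inferior cones at P2, 112 and 55.3 by P8, 115 and 32.8 by P21, 67.9 and 71.4 by P60, and 129.7 and 63.7 by 2 months. It was higher in superior cones in 4 of 5 collections, and so was Hnrnpa3, which was lower in superior cones at 2 months (53 CPM, against 76.6 CPM in inferior cones).

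Superior cones were higher in all 5 collections for 5 genes (5.32%, against 4.96% of all genes), and lower in all 5 for 0 (2.4% of all genes). Rbm28, whose yeast relative acts in ribosome assembly, had the largest mean difference of these, at 0.84 ± 0.41 (SE; limma, adjusted p = 0.725), with differences of 0.06 to 2.03 over collections. Rbm4, a regulator of alternative exons, was at 0.80 ± 0.37 (SE; limma, adjusted p = 0.721), and averaged 75.8 and 33.7 CPM in superior and inferior cones at P2 and 44.5 and 21.1 CPM at 2 months. Rbm4b (0.41 ± 0.23), Snrpn (0.20 ± 0.15) and Sf3b1 (0.10 ± 0.11) completed the list, each with its SE. Rbm4 and Rbm4b are closely related neighbours whose intervals both overlap Gm21992, and Snrpn overlaps Snurf and Snhg14, so counting may have split or merged their reads. The median difference was 0.11 for splicing genes and 0.10 for all genes, and it was negative for 30 of the 94 splicing genes (31.9%, against 40.2% of all genes).

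**Figure D4:**
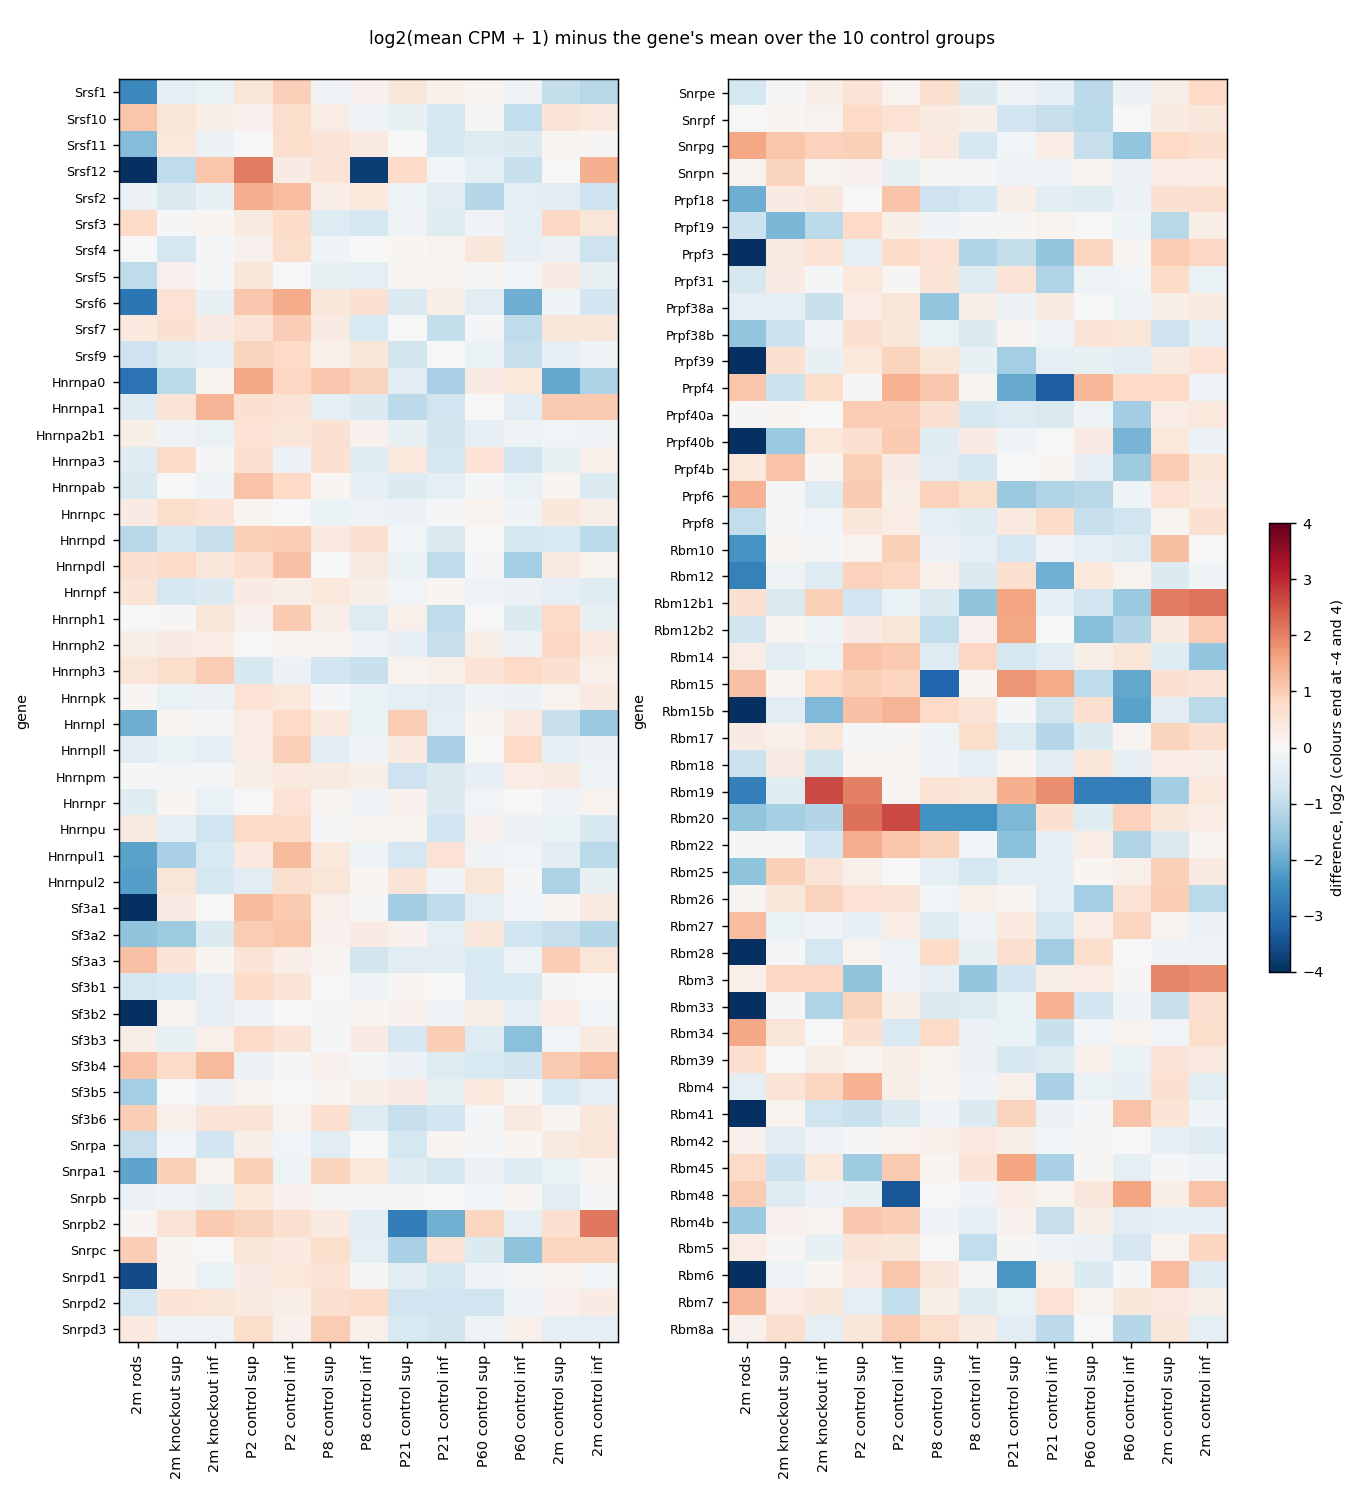
Each of the 95 genes in each group, as log2(mean CPM + 1) minus the gene's mean over the 10 control groups; red is higher, blue lower, and colours end at −4 and 4. The rod column has the darkest blue cells, such as Prpf39 (0 CPM in rods) and Sf3b2 (3.20 CPM).

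Loss of the receptor was compared in 2 month cones, knockout over control, with 76 splicing genes that had enough reads. The groups are 1 collection each, so no test was possible. By the size rule 1 gene was higher in knockout cones (1.32%, against 2.2% of all genes) and 1 was lower (1.32%, against 2.1%). The median log2 ratio was −0.09, against 0.03 for all genes. Hnrnpl (chr7:28808546-28822268), which binds CA repeats and regulates nearby exons, averaged 90.5 and 79.3 CPM in knockout cones of the superior and inferior zones, against 44.1 and 28.8 CPM in the controls, log2 ratios of 1.02 and 1.43. It was over 1 CPM in 38 of 50 and 34 of 48 knockout cones, against 44 of 53 and 31 of 50 control cones. The median cell was at 36.3 and 32.9 CPM in knockout cones, against 26.5 and 12.8 CPM in control cones. Cells overlapped over nearly their whole range, with the highest at 564 and 524 CPM in knockout cones, against 274 and 202 CPM in control cones.

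Rbm3 (chrX:8138975-8145880), an RNA-binding protein induced by cold and known to protect synapses in mouse brain, was the gene lower in knockout cones. It averaged 87.2 and 85.9 CPM in knockout cones of the superior and inferior zones, against 188 and 176 CPM in the controls, log2 ratios of −1.10 and −1.03. It was over 1 CPM in 26 of 50 knockout cones (52%; exact 95% interval 37.4 to 66.3%, counting error only) and in 43 of 53 control cones (81.1%; 68.0 to 90.6%) of the superior zone. In the inferior zone these were 25 of 48 (52.1%, 37.2 to 66.7%) and 35 of 50 (70%, 55.4 to 82.1%), intervals that overlap. The median cell was at 5.12 and 1.73 CPM in knockout cones, against 144 and 154 CPM in control cones.

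Both genes lost this place against the P60 controls. Hnrnpl was at 90.2 and 110.0 CPM in P60 controls, and its log2 ratio of knockout over P60 was 0.01 and −0.47. Rbm3 was at 60.0 and 50.2 CPM in P60 controls, and its ratio was 0.53 and 0.76. P60 over 2 month controls, which share the genotype, differed for Hnrnpl by 1.01 and 1.90 and for Rbm3 by −1.63 and −1.79. The 2 month controls had the lowest Hnrnpl and the highest Rbm3 of the 5 control collections, and they are shared by each of these ratios. Against both control collections, 0 of 73 splicing genes were higher (0.386% of all genes) and 0 were lower (0.879%). Knockout over P60 controls alone gave 3 higher splicing genes, Prpf4b, Sf3b4 and Srsf6, and 0 lower ones. Among all genes with enough reads, 3.7% were higher and 3.76% lower in that comparison. With 1 collection per genotype, genotype and collection cannot be told apart.

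Rods were compared with the 2 month control cones of both zones, which they had to differ from in 1 direction. Of 70 splicing genes with enough reads, 0 were higher in rods (4.9% of all genes) and 20 were lower (28.6%, against 33.7%). These were 3 of 10 SR protein genes, 2 of 17 hnRNP genes, 2 of 8 SF3 genes, 3 of 10 Snrp genes, 4 of 9 Prpf genes and 6 of 16 Rbm genes. The median log2 ratio was −0.37 for splicing genes and −0.49 for all genes, and with TMM factors 0.21 and 0.08. On that scale 7 genes were higher, Hnrnpf, Hnrnpu, Rbm42, Rbm7, Sf3b6, Snrpd3 and Srsf10 (10%, against 11.2%), and 13 were lower (18.6%, against 25.1%). Leaving out the highest cell of each group gave 29 lower genes, which included all 20, and 0 higher. Where few rods hold a gene, dropping 1 of 29 rods lowers the mean by construction, more than dropping 1 of 53 or 50 cones tends to. No share of all genes is given for this setting, so the count does not bear on how firm the 20 are. The rods came from another reporter line in 1 collection, so cell type, line and collection cannot be told apart.

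The widest gap was that of Prpf39 (chr12:65036334-65063386), a homologue of a yeast U1 particle protein. Prpf39 had 0 reads in all 29 rods, which allows a share of up to 10.3% of rods by the limit of 3 in 29 cells, with an exact 95% upper bound of 11.9%. It averaged 165 and 192 CPM in superior and inferior 2 month control cones, where 47 of 53 and 44 of 50 cells were over 1 CPM. Control cones of the other ages averaged 49.3 to 241 CPM and knockout cones 198 and 104 CPM. Its interval overlaps Fkbp3. Sf3b2 (chr19:5273921-5295457), the SF3B subunit that anchors the U2 particle near the branch point, averaged 3.20 CPM in rods, against 384 and 288 CPM in superior and inferior control cones. Sf3b2 was detected in rods but low throughout: 16 of 29 were over 1 CPM (55.2%; exact 95% interval 35.7 to 73.6%), and lowest, median and highest rods were at 0, 1.41 and 20.8 CPM. The cells of the superior control cones were at 0.0482, 267 and 1212 CPM, and those of the inferior cones at 0.0679, 317 and 839.8 CPM. In the 12 groups of cones its mean was 242 to 384 CPM.

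Sf3a1 (chr11:4160354-4182541) averaged 2.16 CPM in rods, against 81.2 and 99.9 CPM in superior and inferior control cones, and 2 of 29 rods were over 1 CPM, against 22 of 53 and 17 of 50 cones; without its highest rod the mean was 0.710 CPM. Snrpd1 averaged 1.89 CPM in rods, against 36.8 and 30.8 CPM in control cones, and its highest rod was at 16.7 CPM. Sf3a1 belongs to the U2 particle and Snrpd1 to the ring of Sm proteins around the small nuclear RNAs. Prpf40b, related to a yeast U1 protein, averaged 1.30 CPM in rods (0.00193 CPM without the highest rod), against 70.5 and 44.6 CPM in control cones. Rbm28 had 4 reads over all rods, with no rod over 1 CPM, and averaged 23.3 and 22.3 CPM in control cones. Rbm33, an RNA export adaptor in human cells, had 1 read over all rods and averaged 20.9 and 66.4 CPM in control cones.

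In rods, the means of Srsf6, Prpf18 and Snrpa1 rested on 1 cell, the only one of 29 over 1 CPM. Srsf6 averaged 15.4 CPM in rods, against 107 and 70.8 CPM in superior and inferior control cones, but 0.0169 CPM without its highest rod. Prpf18, which acts in the second step of splicing, averaged 19.5 CPM in rods (0.0651 CPM without the highest), against 119 and 121 CPM in control cones. Snrpa1, the U2 protein A′ gene, averaged 10.8 CPM in rods (0.0130 CPM without the highest), against 41.9 and 54.1 CPM in control cones. Rbm25, a regulator of exon choice, was over 1 CPM in 8 of 29 rods and averaged 44.3 CPM there (28.7 CPM without the highest), against 269 and 178 CPM in control cones. Srsf11 was at 38.6 CPM in rods (17.8 CPM without the highest), against 139 and 134 CPM in control cones. The other 8 genes of the list were 2.16 to 3.56 times lower in rods, by zone, and included Srsf1, Hnrnpa1, Prpf8 and Rbm3. Without the highest rod the mean of Srsf1 was 25.3 CPM in place of 41.6 CPM, that of Hnrnpa1 37.8 CPM in place of 62.2 CPM, and that of Rbm3 20.6 CPM in place of 56.2 CPM. Rod markers, cone markers and glial markers differ between these groups as given above, and Arr3, a cone arrestin, was over 1 CPM in 1 of 29 rods.

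**Figure D5:**
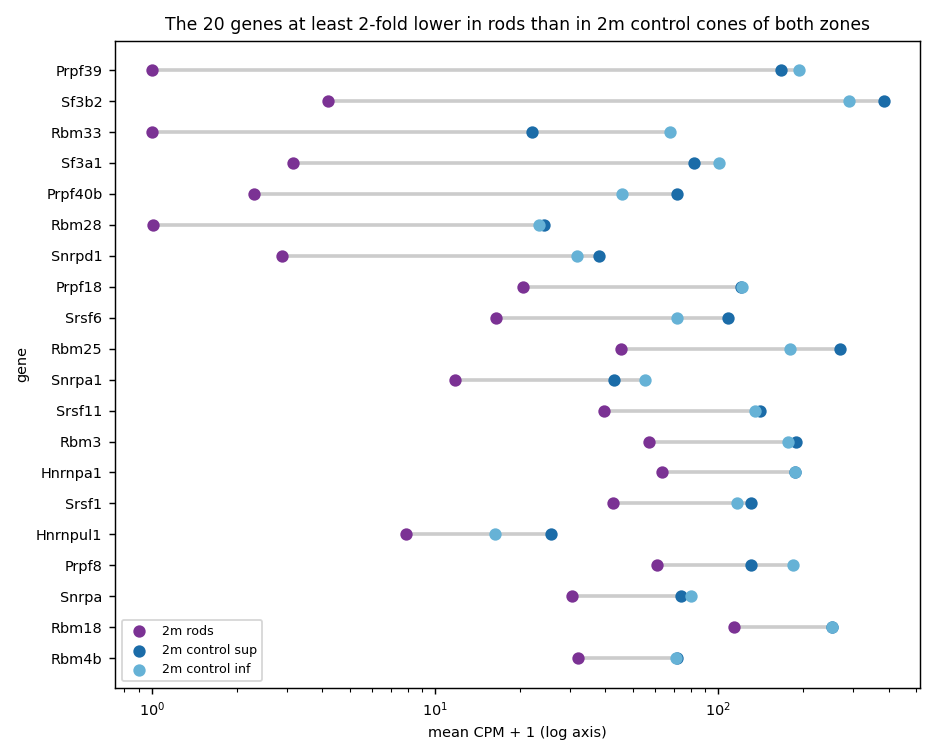
The 20 splicing genes at least 2-fold lower in rods than in 2 month control cones of both zones, as mean CPM + 1 on a log axis; purple is rods, dark blue superior and light blue inferior control cones. Prpf39 and Sf3b2 have the widest gaps, at 0 and 3.20 CPM in rods before the addition of 1.

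Several abundant regulators differed by less than 2-fold between rods and cones in CPM. Hnrnpk, a KH-domain protein of nucleus and cytoplasm, averaged 1429 CPM in rods, against 1482 and 1759 CPM in superior and inferior control cones. Hnrnpa2b1 averaged 1015 CPM in rods, against 807 and 788 CPM in control cones. Srsf3, among the smallest SR proteins, averaged 489.9 CPM in rods, against 502 and 403 CPM in control cones. Against P60 cones, rods were higher for 3 of 69 splicing genes, Sf3b4, Snrpc and Srsf10, and 7.13% of all genes were higher. Rods were lower for 17 of the 69 (24.6%, against 38.7% of all genes).

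The tri-particle genes known from retinitis pigmentosa were over 1 CPM in 0 to 5 of 29 rods. In 2 month control cones the counts were 9 to 27 of 53 superior and 7 to 26 of 50 inferior cells. At equal depth a median rod also showed fewer of all genes, 15.9% against 39.1% and 34.5%. Over all cells, rods had lower means of Prpf3, Prpf8 and Prpf31 than control cones of either zone, and higher means of Prpf4 and Prpf6. With so few rods over 1 CPM, leaving out the highest rod lowers a mean by construction. Prpf8, the large protein at the centre of the spliceosome, averaged 60.0 CPM in rods (3.85 CPM without the highest cell), against 129.6 and 183 CPM in superior and inferior 2 month control cones. It was over 1 CPM in 4 of 29 rods. Prpf31 averaged 49.6 CPM in rods (6.20 CPM without the highest), against 129.7 and 63.7 CPM. Prpf4 averaged 50.9 CPM in rods, against 40.3 and 19.6 CPM in control cones, but 1 rod of 29 held nearly all of it. Without the highest cell of each group Prpf4 was at 0.0633 CPM in rods, against 32.7 and 2.39 CPM, log2 ratios of −4.99 and −1.67. Prpf3 was at 0.00734 CPM in rods, with none of 29 over 1 CPM, against 70.9 and 63.1 CPM in control cones, where too few inferior cones held it to meet the size rule. Prpf6, which bridges U5 and U4/U6, averaged 185 CPM in rods, against 106 and 91.8 CPM in superior and inferior control cones, 1.75 and 2.02 times as much. Much of that excess came from 1 rod: without the highest cell of each group Prpf6 was at 94.4 CPM in rods, against 92.5 and 71.1 CPM in control cones, log2 ratios of 0.03 and 0.40. In knockout cones the means were 112 to 114 CPM for Prpf8, 73.7 to 98.5 CPM for Prpf31, 50.4 to 67.4 CPM for Prpf6, 12.2 to 38.1 CPM for Prpf4 and 45.1 to 51.6 CPM for Prpf3.

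Region lists from bulk tissue give the places bound by the tagged receptor in E18 retina of ThrbHAB:BirA mice, for which BirA mice were the controls (ChAP-seq, 4590 regions), and the open regions of P30 cone nuclei from Trb2Cre-KO:Sun1-gfp and Trb2Cre-het:Sun1-gfp mice (ATAC-seq) listed as induced (5049) or suppressed (4072). How these 2 classes were decided is not given in the sources used here. The share of splicing genes near such regions was below that of all genes in each list: within 10 kb of the gene, 8 of 95 had a bound region (8.42%, against 21.2% of all placed genes), 13 an induced one (13.7%, against 17.7%) and 5 a suppressed one (5.26%, against 7.69%). Within 50 kb, the counts were 32 (33.7%, against 39%), 33 (34.7%, against 35.5%) and 9 (9.47%, against 13.2%). These counts carry no test.

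A bound and an induced open region overlapped inside 2 of the genes. In Sf3a1 the bound region was chr11:4174775-4175074 and the open one chr11:4174388-4175064. In Rbm20, which spans chr19:53660989-53867083, the bound region chr19:53823855-53824154 lay within the open region chr19:53823586-53824273, a further bound region lay at chr19:53806587-53806886, and a suppressed region at chr19:53824789-53825376. Sf3a1 averaged 97.3 and 77.9 CPM in knockout cones of the superior and inferior zones, against 81.2 and 99.9 CPM in 2 month control cones. Rbm20 is given above. Hnrnpf held a bound region alone, Rbm28, Snrpb, Sf3b2, Rbm18 and Hnrnpm an induced region, and Sf3b1, Rbm5 and Snrpn a suppressed one. Positions are those of the files and of RefSeq on GRCm38, in which all 95 genes were placed.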

How the data were processed

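The authors deposited 1 table of CPM values for 430 single-cell libraries (SMART-Seq v4 and ThruPLEX kits, per the labels' protocols). Per the submitters' processing notes, bcl2fastq 2, STAR 2.7.3a and MACS2 2.2.7.1 were used with GRCm38 (mm10). The counting tool, annotation and strand setting remain not given in the sources used here. Values were whole multiples of 1 read for 100% of values (tolerance 0.1 read), so reads per cell were recovered. The genes of the table hold 80.0 to 93.0% of each cell's CPM. The region lists give positions, and a p-value per bound region that the authors deposited and that was not used.

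Group means over cells were tested as log2(mean CPM + 1) for genes of at least 5 CPM with limma 3.58.1 in R 4.3.3, with a threshold of 0.05 after Benjamini-Hochberg adjustment. Scripts ran in Python 3.11.15 with NumPy 2.4.6, pandas 2.3.3 and SciPy 1.17.1. The superior and inferior groups of 1 age form a pair, so the zone test has a block for collection. Knockout, rod and P60 ratios carry no test. On the recovered reads summed per group, the count test of edgeR 4.0.16 and that of DESeq2 1.42.0 were alternatives; for splicing genes edgeR called 0 by age and 0 by zone. The scripts were tested on simulated data. Shares of cells have exact Clopper-Pearson intervals, and intervals and limits of 0 cover counting error only. Since labels name no animal, p-values do not measure the spread between animals. Those of the zone test measure how the zone difference varied over collections. Those of the age test measure the spread between collections of a side, which includes any change with age within that side.

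Named members were those past a threshold, up to 12 in each direction; where fewer than 6 passed, the 8 with the largest difference among members whose collections do not overlap (age) or keep 1 direction in 5 of 5 collections (zone), of 10 CPM or more on average; and a list of known factors. Other genes named here were chosen after their values were seen. Members and lists were chosen with earlier results of these data known. Alternatives were pseudocounts of 0.1 and 10, averaging of log values, no or other minimum levels, TMM factors, CPM without opsins, leaving out each collection, other fold sizes and P60 as the control; means without the highest cell, and every library as a cell, were added after seeing the data.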

Additional observations from a re-analysis of the deposited data

How the results depend on the processing

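The zone test called 0 splicing genes under every alternative run, including the fit without the replicate block for collection (0 splicing genes, 2 of all genes), averaged log values (16 of all genes) and DESeq2 (237 of all genes). The age test called 0 (19 of all genes), but 2 (Srsf2 and Srsf6) with log values averaged over cells (400 of all genes) or with a slope over the rank of age (214), 2 (Hnrnph3 and Srsf2) with DESeq2 (343), and 0 to 1 when 1 collection was left out (1, Srsf2, without P8, with 221 of all genes). Of the named members' alternative age values, 227 kept direction and side of the threshold and 7 passed it; sizes moved more, as given for Rbm48, Rbm3, Rbm7, Sf3a2, Prpf6 and Srsf2.

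Knockout over 2 month control gave 1 higher gene (against 2.2% of all genes), and knockout over P60 controls gave 3 (against 3.7%). The count was 0 with a pseudocount of 10, averaged log values, TMM factors or a 4-fold limit. Knockout over 2 month control gave 1 lower gene (against 2.1% of all genes), and knockout over P60 controls gave 0 (against 3.76%). The count was also 0 with a pseudocount of 10 or at 4-fold. It was 2 with averaged log values, 4 at 1.5-fold and 3 with no minimum. Against P60 controls, Hnrnpl turned to −0.23 and Rbm3 to 0.65 (mean log2 ratio of both zones).

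Rods gave 0 higher genes (4.9% of all genes), but 7 with TMM factors (against 11.2%) and 3 against P60 cones (against 7.13%). The count was 4 at 1.5-fold and 1 with no minimum. They gave 20 lower genes (against 33.7% of all genes), but 13 with TMM factors (against 25.1%). The count was 55 with averaged log values, 9 at 4-fold and 31 with no minimum. P60 over 2 month control gave 1 higher gene (against 5% of all genes). The count was 0 with a pseudocount of 10, TMM factors, 4-fold or without the highest cell of each group. It was 4 with averaged log values, 4 at 1.5-fold and 2 with no minimum. P60 over 2 month control gave 7 lower genes (against 5.06% of all genes). The count was 3 with a pseudocount of 10, 3 with averaged log values, 13 at 1.5-fold, 0 at 4-fold and 12 with no minimum. A change of setting can move the calls of all genes as well. Where no share of all genes stands beside a count, the count cannot be read as particular to splicing genes. Apart from the limits that admit or exclude genes by construction, the cause of these shifts was not tested. Depth limits what low members can show. At its own depth a median P21 cell had reads for 54 (superior) or 48 (inferior) of the 95 genes. Thinned to 800000 reads, it had reads for 50 or 44.5.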

Other observations

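Other genes of the splicing machinery that the symbol rule leaves out were taken from a list, of which 78 were measured. Of these, 0 passed the age or the zone test (limma, adjusted over all genes), and at an unadjusted p under 0.05, 12 were lower (15.4%, against 10.1% of all genes) and 2 higher (2.56%, against 4.43%) in mature cones. Among 31 tissue-restricted regulators, 14 had both P2 zones above the other control groups (45.2%, against 14.9% of all genes). With TMM factors 9 of the 31 regulators had this place, and 8.56% of all genes did. Ptbp1, which represses neuronal exons in dividing cells, averaged 134 and 134 CPM in superior and inferior cones at P2, and 12.1 to 72.6 CPM in the older control groups. Its difference between mature and early cones was −1.54 (limma, adjusted p = 0.260). Mbnl2, a regulator of the switch to adult exons, went the other way. It averaged 49.7 and 59.7 CPM at P2, 292 and 227 by P8, 516 and 399.7 by P21, 619 and 580.3 by P60, and 456 and 375 by 2 months, a difference of 2.01 (limma, adjusted p = 0.168). Srrm4, a neuronal splicing activator, had a difference of −1.23 (limma, adjusted p = 0.285).

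Of 56 such genes with enough reads, 3 were higher in knockout cones by the size rule (5.36%, against 2.2% of all genes): Msi1, Msi2 and Celf3. Musashi proteins promote photoreceptor exons in mice. Msi1 averaged 15.9 and 16.7 CPM in knockout cones of the superior and inferior zones, against 7.27 and 5.41 CPM in 2 month control cones. For Msi2 it was 41.5 and 42.3 CPM, against 15.4 and 14.4 CPM. P60 control cones had 9.26 and 9.92 CPM of Msi1 and 78.3 and 42.5 CPM of Msi2. The mean of Celf3 in knockout cones was above that of 2 month control cones but below that of P60 control cones, in both zones. Of the 3 genes, only Msi1 was higher in knockout cones than in P60 control cones, so the count depends on which controls are used. Nono alone was lower in knockout cones, where 2.1% of all genes were lower. It averaged 168 and 71.7 CPM, against 350.0 and 242 CPM, with 93.1 and 94.0 CPM in P60 control cones. Genotype and collection cannot be told apart for any of these genes. In rods 14 of 48 genes were lower (29.2%, against 33.7% of all genes) and 2 were higher (4.17%, against 4.9%). Clk1, a kinase of SR proteins, averaged 0.0353 CPM in rods, against 381 and 349.7 CPM in 2 month control cones. Celf2 had 0 reads in rods, against 148 and 183 CPM in control cones.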
